A study of Mus musculus with 8 samples.

Results

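The genes described here encode the respiratory chain and the ATP synthase, which together carry out oxidative phosphorylation, in cultured mouse CD11c+ bone marrow cells. They are the 102 of 11756 genes in the deposited table whose symbols begin with Nduf followed by a, b, c, s or v, with Uqcr, with Cox and a digit from 4 to 8, or with Atp5, together with Sdha to Sdhd, Cyc1 and the protein genes of mitochondrial DNA. The nuclear genome holds 90 of them: 45 of complex I, 4 of complex II, 9 of complex III, 15 of complex IV and 17 of complex V. Mitochondrial DNA holds the other 12: 7 of complex I, 1 of complex III, 3 of complex IV and 1 of complex V. The mitochondrial gene mt-Atp8, which the symbol rule would take in, is not in the deposited table. The symbol rule also took in 7 complex I assembly factors, the Ndufaf genes, which are not part of the finished enzyme, and 1 annotated pseudogene, Cox7c-ps1.

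In the respiratory chain, electrons enter from NADH at complex I and from succinate at complex II, pass through ubiquinone to complex III and by cytochrome c to complex IV, and reduce oxygen to water. Complexes I, III and IV pump protons across the inner mitochondrial membrane, and complex V uses the gradient to make ATP. Mitochondrial DNA encodes central membrane subunits of complexes I, III, IV and V, transcribed as long RNAs that are then processed, whereas the nuclear subunits each have a promoter of their own and complex II is wholly nuclear. Dendritic cells, which carry CD11c, are known to shift between oxidative phosphorylation and glycolysis on activation.

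The study compared cells kept with acLDL, an acetylated form of low-density lipoprotein that cells take up through scavenger receptors, with control cells. The cells came from C57BL/6 femurs and tibias and were isolated by flow cytometry for CD11c. Loading with acLDL, or the control treatment, began on culture day 6 and lasted 24 h. Each group has 4 libraries of poly(A) RNA made with a kit that reads the 3′ end of messages, and no label says whether each library is a culture or an animal of its own. A p-value here therefore reflects only how far these libraries spread, which may be technical. Below, the values of a gene are the authors' normalized signal, listed for acLDL libraries 1 to 4 and then for control libraries 1 to 4. A log2 difference is acLDL minus control on log2(value + 5), from limma, with its standard error (SE, n = 4 libraries per group) and an adjusted p by Benjamini-Hochberg over 10091 genes with at least 10 in at least 4 libraries. The pseudocount of 5 understates the change of low genes.

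Library totals ran from 3917426 to 4385051 in this normalized scale, in which reads behind a value cannot be recovered. Libraries 2 and 3 with acLDL stood apart: 18.5% and 21.9% of all genes were listed at 0 there, against 5.63% to 11.96% in the other 6. A short-transcript index was the mean log2 deviation of 667 tested genes with transcripts under 1000 nt, with no members among them. It was 0.82, -1.05, -1.68 and -0.28 in acLDL libraries 1 to 4. In control libraries 1 to 4 it was 0.07, 0.72, 0.83 and 0.57. Its mean was -0.5475 with acLDL and 0.5475 in controls, and it ran close to the mean deviation of the nuclear members given below. A fit with this index as a covariate therefore cannot separate the index from the treatment. Itgax, which encodes CD11c, was at 189, 10, 0 and 42.7 with acLDL and 81.5, 182, 195 and 172 in controls, so the defining marker of the sort was listed at 0 in acLDL library 3. Of the 12 dendritic cell and macrophage markers 11 were tested, 8 with a lower and 3 with a higher mean. Their summed signal was 43089 to 56917 with acLDL and 37563 to 40981 in controls, but H2-Eb1 alone gave 23144, 39629, 44279 and 31147 of it with acLDL and 26611, 21913, 18386 and 21618 in controls. Without H2-Eb1 the markers summed to 20666, 11212, 12638 and 11942 with acLDL and 11462, 19068, 19177 and 16621 in controls. Csf1r and Itgam were the others with a higher mean, while H2-Aa, H2-Ab1, Cd74, Cd68 and Adgre1 were lower, as Itgax was. Granulocyte markers summed to 8408 to 18107 against 11405 to 20326, erythroid markers, with Hbb-bs the only one in the table, to 54.1 to 190 against 164 to 1429, and 2 lymphocyte markers to 29.4 to 76.8 against 16.6 to 31.4. The ribosomal RNA Rn18s-rs5 took 0.493% to 0.783% of the acLDL libraries and 1.46% to 4.91% of the controls. The part of these differences in the results below was not tested. Values are also given with the short-transcript index as a covariate and with libraries left out. In bulk RNA, fewer cells of a type and less RNA per cell cannot be told apart.

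Most nuclear respiratory chain genes had lower values with acLDL, but the lowest values lay mostly in acLDL libraries 2 and 3, and acLDL library 1 was among the highest of the 8. Of the 88 nuclear members tested, 64 had a lower and 24 a higher mean with acLDL, where 55.7% of all tested genes were lower and 44.3% higher. Their median log2 difference was -1.35, with a range of -3.80 to 1.54, and that of all tested genes was -0.13. Of the 12 mitochondrial genes, 10 had a lower and 2 a higher mean, with a median of -0.55. No member passed the threshold of an adjusted p of 0.05, as no gene of the table did (0.0% of 10091), and the smallest adjusted p of a member was 0.298. At an unadjusted p under 0.05, 12 nuclear members were lower and 8 higher, against 8.93% and 7.42% of all tested genes, and 0 mitochondrial genes were.

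The mean deviation of the nuclear members from their own mean over the libraries, in log2 units, was 0.91, -1.05, -2.06 and -0.13 in acLDL libraries 1 to 4 and 0.09, 0.76, 0.91 and 0.57 in control libraries 1 to 4. The mitochondrial genes stood at 0.63, -1.08, -0.83 and -0.27 with acLDL and at -0.47, 0.31, 0.81 and 0.89 in controls. Thus acLDL library 1 was among the highest of the 8 for both genomes, and control library 1 was the lowest control for both. In acLDL library 1, 62 of the 88 nuclear members lay within the range of the controls, as 68.2% of all tested genes did, so this share is near the background. Libraries 2 and 3 with acLDL were both below the other 6 for 49 nuclear members and both above them for 13, against 19.8% and 16.0% of all tested genes. Of the 90 nuclear members, 24 were listed at 0 in at least 1 library, against 2847 of the 10091 tested genes. In acLDL library 3, 22 of the 90 were at 0, where 21.9% of all genes and 1639 of the 10091 tested genes were. In acLDL library 2, 8 of the 90 were at 0, where 18.5% of all genes and 1217 of the tested genes were. In any of control libraries 2 to 4, 3 of the 90 and 875 of the tested genes were at 0. Against tested genes, zeros were thus more frequent among members in acLDL library 3. They were less frequent in acLDL library 2 and in control libraries 2 to 4.

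**Figure D1:**
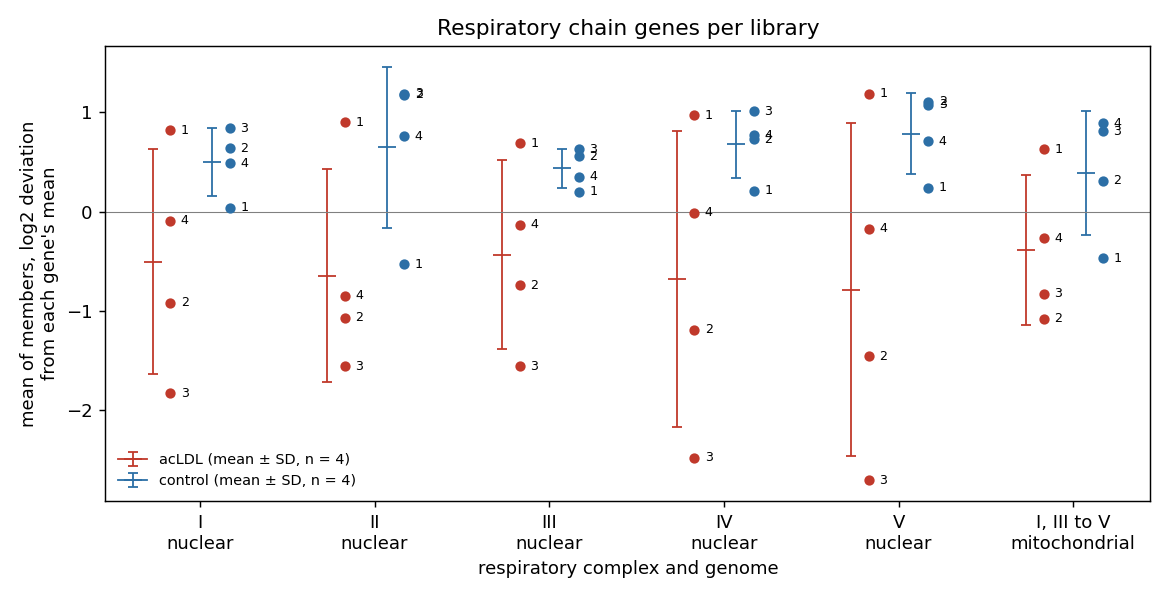
Mean log2 deviation of the tested members of each complex and genome from their mean over the 8 libraries, by library. Red points are acLDL and blue points control libraries, with their numbers, and the bars give the mean ± SD of each group (n = 4). For the nuclear genes of complexes I to V, acLDL library 3 was the lowest point (-1.83 for complex I, -2.71 for complex V), and acLDL library 1 lay within or just above the range of the controls.

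The groups overlapped for all but 4 members. Those whose 4 acLDL libraries all lay outside the 4 controls were Ndufs7 and Uqcrc2 on the lower side and Ndufa12 and Ndufaf7 on the higher side. Among all tested genes 2.2% had such non-overlapping lower values and 3.44% higher ones, so 2 of 88 in each direction is near the background. With acLDL library 1 left out, 50 members passed the threshold by limma, 42 nuclear members lower, 6 nuclear members higher and 2 mitochondrial genes lower, against 14.4% lower and 7.28% higher among all tested genes in the same comparison. The 6 higher ones were Ndufaf8, Ndufc1, Ndufa12, Atp5g1, Ndufaf3 and Cox6c, with limma adjusted p from 0.0224 to 0.0401, and the mitochondrial ones were mt-Co3 (limma adjusted p = 0.0238) and mt-Nd3 (limma adjusted p = 0.0387). With libraries 2 and 3 left out instead, the median was -0.20 for the nuclear and -0.26 for the mitochondrial members, and with the short-transcript index as a covariate it was 0.14 and 0.03.

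Complex I oxidizes NADH through a matrix arm that holds the flavin and iron-sulfur clusters and a membrane arm that pumps protons. Its 7 nuclear catalytic core subunits had a median log2 difference of -1.19, with 6 lower and 1 higher mean. Ndufs1, which carries several iron-sulfur clusters of the NADH-oxidizing module, was at 112, 9.06, 9.10 and 31.6 with acLDL and 23.5, 98.9, 129.8 and 52.4 in controls, a log2 difference of -1.19 (SE 0.77). Ndufv1, the subunit that binds NADH and the flavin, was at 415, 385, 84.3 and 181 against 711, 321, 419 and 198. Both were lowest in acLDL library 2 or 3, and in both the groups overlapped.

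Ndufs7, the core subunit that holds the iron-sulfur cluster next to the quinone pocket, was the only core subunit whose groups did not overlap. It lies at chr10:80249121-80256794 (GRCm38, plus strand). Ndufs7 was at 177, 102, 38.9 and 90.2 with acLDL and 212, 181, 209 and 178 in controls. Its log2 difference was -1.07 (SE 0.40, limma adjusted p = 0.298), and the highest acLDL library was just below the lowest control. In contrast, Ndufv2, an iron-sulfur subunit that neighbours Ndufv1 in the enzyme, was at 757, 621, 671 and 794 against 726, 629, 661 and 703, and all 8 libraries lay close together. Ndufs7 and Ndufv2 were chosen for this text after their values were seen.

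The 31 accessory subunits of complex I ranged from Ndufa1 at -3.49 to Ndufc1 at 0.91, with 22 lower, 9 higher and a median of -1.37. Ndufa1, a small membrane arm subunit encoded on the X chromosome and likewise picked after its values were seen, was at 979.9, 6.55, 0 and 133 with acLDL and 84.6, 1332, 1190.4 and 879 in controls. Control library 1 was low for it too, so that the groups overlapped despite the size of the difference, which was 0.21 with the short-transcript index as a covariate. Ndufa4, first described as a complex I subunit and now assigned to complex IV, was at 301, 9.54, 0 and 116 against 143, 239, 296 and 204. Other accessory subunits held or exceeded the control level in the same libraries in which these were near 0. Ndufa12, on the matrix arm (chr10:94198720-94221443, plus strand), was at 1289.8, 1992, 1838 and 1356 with acLDL and 1119.6, 817, 1045 and 876 in controls, a log2 difference of 0.73 (SE 0.21, limma adjusted p = 0.298) with no overlap. Ndufc1, in the membrane arm, was at 527, 1182, 1379.5 and 943 against 668, 423, 501 and 452, a log2 difference of 0.91 (SE 0.31, limma adjusted p = 0.298). For both, acLDL libraries 2 and 3 were the highest of the 8, the reverse of the order seen for Ndufa1 and Ndufa4.

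The assembly factors of complex I, which build the enzyme and then leave it, had a median of 0.61 in the 6 that were tested, with 2 lower and 4 higher. Ndufaf8, a small partner protein of Ndufaf5, was at 200.2, 514, 1087 and 828 with acLDL and 252, 140.2, 206 and 168 in controls, a log2 difference of 1.54 (SE 0.48, limma adjusted p = 0.298), or 0.65 with the short-transcript index as a covariate. Only acLDL library 1 fell within the control range. Ndufaf7, a methyltransferase, was at 67.8, 68.8, 102 and 57.6 against 33.9, 13.5, 42 and 42.9, a log2 difference of 1.12 (SE 0.39, limma adjusted p = 0.298) without overlap. Ndufaf5 itself, named as the partner of Ndufaf8 after its values were seen, was listed at 17.4, 0, 0 and 11.5 against 6.19, 33.5, 34.4 and 19.9, near the floor of the table throughout. The median of the assembly factors was 0.30 with the short-transcript index as a covariate and 0.32 without acLDL libraries 2 and 3.

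Nuclear respiratory chain promoters are known for binding NRF1, ETS-family factors such as GABP, and YY1. The RefSeq promoter table (GRCm38.p6, 250 bases before to 50 after each start) held 75 of the 90 nuclear members. NRF1 was searched as GCGCA followed by any base and GCGC, ETS as CCGGAAG and YY1 as AANATGGCG, on both strands. NRF1 letters were in 18 of the 75 (24.0%), against 11.1% of tested genes and 4.78% of all 27025 promoters. ETS letters were in 18 (24.0%), against 19.8% and 9.12%, and YY1 letters in 9 (12%), against 5.82% and 2.51%. Members with and without a match had median log2 differences of -1.76 and -1.34 for NRF1, -1.97 and -1.35 for ETS, and -1.07 and -1.38 for YY1. Ndufs7, with the non-overlapping lower values, and Ndufaf8, with a higher mean, are shown with the matched letters in capitals. Ndufs7 (chr10:80249199-80249498, plus strand) has 1 YY1 match near the start of the message, and Ndufaf8 (chr11:120098684-120098983, plus strand) has 1 ETS match followed by 1 YY1 match. YY1 letters thus stand in both of these promoters, which were chosen after the values were seen. Whether the letters bear on the values was not tested. The matches are letters in a window, not shown to be bound.
Ndufs7: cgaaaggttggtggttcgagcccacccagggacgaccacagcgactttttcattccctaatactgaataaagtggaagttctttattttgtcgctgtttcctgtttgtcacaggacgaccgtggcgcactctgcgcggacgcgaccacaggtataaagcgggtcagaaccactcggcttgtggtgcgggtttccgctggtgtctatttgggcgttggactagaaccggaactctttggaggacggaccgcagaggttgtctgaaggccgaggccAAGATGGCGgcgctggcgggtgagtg
Ndufaf8: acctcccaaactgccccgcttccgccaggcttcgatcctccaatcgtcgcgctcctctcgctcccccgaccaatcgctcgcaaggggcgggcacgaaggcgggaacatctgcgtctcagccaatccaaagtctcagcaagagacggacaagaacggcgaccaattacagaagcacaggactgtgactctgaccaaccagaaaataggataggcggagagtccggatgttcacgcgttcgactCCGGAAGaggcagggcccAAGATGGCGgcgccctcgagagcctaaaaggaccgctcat

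Complex II, succinate dehydrogenase, also works in the tricarboxylic acid cycle. Its catalytic pair had log2 differences of opposite sign. Sdha, the flavoprotein, was at 229, 314, 284 and 169.7 with acLDL and 212, 206, 202 and 159 in controls, a log2 difference of 0.32 (SE 0.24). Sdhb, the iron-sulfur subunit to which Sdha passes electrons, was at 248, 38.5, 5.06 and 68.9 against 123, 232, 389 and 156, a log2 difference of -1.97 (SE 0.86, limma adjusted p = 0.298). The membrane anchor Sdhc was at 299, 90.4, 112 and 186 against 209.5, 279, 283 and 326. The other anchor, Sdhd, was listed at 82.2, 0, 0 and 0 against 0, 234, 143 and 117, that is at 0 in 4 libraries of both groups. The groups overlapped for all 4 genes, and their median log2 difference was -1.38, or -0.07 with the short-transcript index as a covariate.

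Complex III passes electrons from ubiquinol to cytochrome c, and its 9 nuclear members had a median of -1.02, with 7 lower and 2 higher. Its catalytic nuclear subunits had log2 differences of opposite sign, although with the short-transcript index as a covariate both were above 0 (0.09 for Cyc1 and 0.21 for Uqcrfs1). Cyc1, cytochrome c1, was at 445, 692, 809.8 and 652 with acLDL and 546, 444, 521 and 374 in controls, a log2 difference of 0.44 (SE 0.23). Uqcrfs1, the Rieske iron-sulfur protein, was at 1654, 596, 364 and 846 against 957, 1312, 1396 and 1242, a log2 difference of -0.70 (SE 0.41). Of the 2 large core proteins on the matrix side, Uqcrc1 was at 85.6, 14.8, 0 and 40.9 against 49, 81.8, 90.1 and 57.7. Its partner Uqcrc2 (chr7:120635176-120659524, plus strand) was at 451, 369.7, 402 and 413 against 553, 587, 496 and 464, with no overlap. The log2 difference of Uqcrc2 was small at -0.35 (SE 0.17, limma adjusted p = 0.299), since all 8 values lay in a narrow band, whereas that of Uqcrc1 was -1.52 (SE 0.80). The small accessory subunits Uqcrb and Uqcrh, the latter the hinge protein that helps cytochrome c1 meet cytochrome c, had log2 differences of -2.22 (SE 1.06) and -1.44 (SE 0.61). Uqcr11, another small subunit, had a log2 difference of -1.02 (SE 0.51). Uqcrh was at 1037, 166, 102 and 345 with acLDL and 609, 769, 926 and 817 in controls.

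Complex IV, cytochrome c oxidase, surrounds its 3 mitochondrial core subunits with small nuclear ones, several of which exist as tissue-specific pairs. The 14 of its 15 nuclear members that were tested had a median of -1.27, with 10 lower and 4 higher. Cox5a had a log2 difference of -3.80 (SE 1.75, limma adjusted p = 0.298), or 0.13 with the short-transcript index as a covariate, and was at 1258, 0, 0 and 223 with acLDL and 189, 1106, 1315 and 939 in controls. Cox4i1, the largest nuclear subunit and the site of regulation by adenine nucleotides, was at 2206, 547, 52.4 and 686 against 1704, 1862, 1799.9 and 1706, a log2 difference of -1.92 (SE 0.92). In both, acLDL library 1 was above at least 3 of the 4 controls and acLDL library 3 was the lowest or tied for it. Cox6c, another small membrane-spanning subunit, was at 8739, 11790.3, 16269 and 11067 against 7897, 7937, 9899.7 and 7184, a log2 difference of 0.51 (SE 0.21, limma adjusted p = 0.298), with acLDL library 3 the highest. Cox5b, which binds zinc and was chosen here after its values were seen, was at 2284, 2578, 1812 and 2194 against 2610.2, 2100.2, 2038 and 2064, a log2 difference of 0.01 (SE 0.17) whose sign changed under several of the alternatives.

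Several subunits have a widely expressed form and a tissue form. Cox6a1 was at 1801, 178, 25.1 and 576 with acLDL and 707, 1295, 1379.7 and 1258 in controls, and its heart and muscle counterpart Cox6a2 at 0, 26.2, 8.10 and 25.8 against 34, 0, 20.9 and 16.3. Cox7a2 was at 715, 243, 54.8 and 219.7 against 459, 818, 939 and 587, a log2 difference of -1.62 (SE 0.65, limma adjusted p = 0.298), and its heart and muscle counterpart Cox7a1 at 43.1, 13.6, 24.5 and 15.5 against 34, 17.7, 11 and 29.6. Thus the muscle forms were at or below 43.1 in every library, while the common forms spanned a wide range within the acLDL group. Cox6b1 was at 1461, 872, 257 and 1748 against 1148, 995, 1364 and 1087, and the testis form Cox6b2 reached at most 27.3, in acLDL library 1, and was not tested. Cox7a2l had a log2 difference of -0.91 (SE 0.44), and Cox8a one of -2.61 (SE 1.08, limma adjusted p = 0.298). Cox7c and the pseudogene Cox7c-ps1, chosen after their values were seen, had log2 differences of -3.64 and -2.42, or 0.27 and 0.81 with the short-transcript index as a covariate; their near-identical sequences can share reads, so both values are uncertain, as are those of other subunits with processed copies in the genome.

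**Figure D2:**
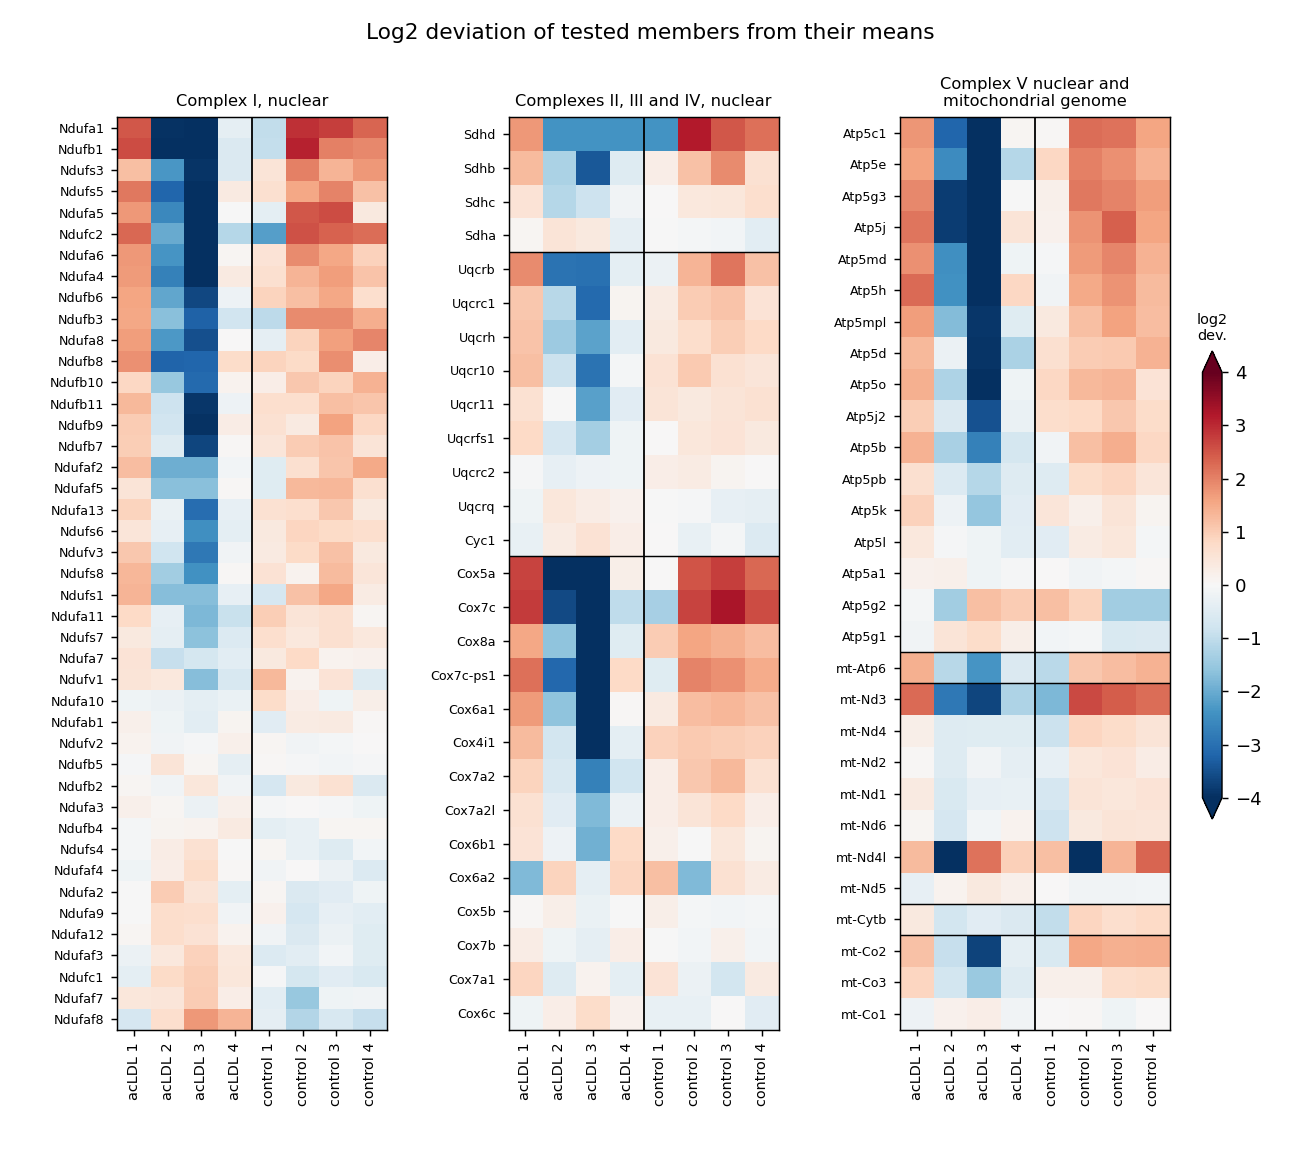
Log2 deviation of the tested members, with 1 not shown, each from its own mean over the 8 libraries, with members in order within complex and genome and libraries in columns; the colour scale ends at 4 in each direction. The columns of acLDL libraries 2 and 3 hold the strongest low values, down to the members listed at 0 in acLDL library 3. In that library 21.9% of all genes and 1639 of the 10091 tested genes were at 0. Beside the low values stand the 13 nuclear members for which acLDL libraries 2 and 3 were both above the other 6.

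Complex V had a nuclear median of -2.01 over 17 members, with 14 lower and 3 higher. The median was -0.37 without acLDL libraries 2 and 3 and 0.10 with the short-transcript index as a covariate. Its catalytic F1 head is built from α and β subunits around a central stalk. Atp5a1, the α subunit, was at 4102, 4129, 3215 and 3477 with acLDL and 3675, 3234, 3393 and 3725 in controls, a log2 difference of 0.08 (SE 0.16). Atp5b, the β subunit that holds the catalytic sites, was at 3835, 595, 222 and 892 against 1309, 3341, 3958 and 2569.5, a log2 difference of -1.65 (SE 0.77). The α and β subunits are present in equal number in the enzyme, and here the mRNA of one was level across the 8 libraries while that of the other spanned a wide range; with the short-transcript index as a covariate the log2 differences were 0.16 and 0.11. Atp5c1 and Atp5e, the γ and ε subunits of the central stalk, had log2 differences of -3.02 (SE 1.30) and -3.02 (SE 1.02, limma adjusted p = 0.298). Atp5e was at 493, 23.6, 5.06 and 69.6 with acLDL and 284, 654, 571 and 420.4 in controls. The peripheral stalk, which keeps the head from turning, had 4 of 4 members with a lower mean and a median of -2.11. Of the 5 other Fo subunits, small proteins of the membrane part, 5 had a lower mean, with a median of -1.67. Atpif1, the inhibitor that blocks ATP hydrolysis by complex V and is not a member by the symbol rule, was at 898, 53.5, 6.89 and 373 against 388, 718, 1040.1 and 519, a log2 difference of -2.34 (SE 1.19).

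The c ring of complex V turns as protons pass, and 3 nuclear genes, Atp5g1, Atp5g2 and Atp5g3, encode the same mature c subunit behind different targeting sequences. Atp5g1 (chr11:96068852-96075670, minus strand) was at 2718, 4281, 4983 and 3508 with acLDL and 2769, 2850.4, 1937 and 1985 in controls, a log2 difference of 0.68 (SE 0.24, limma adjusted p = 0.298). Atp5g3 (chr2:73908447-73911326, minus strand) was at 1217, 18.2, 13.8 and 311 against 363, 1365, 1266 and 1013, a log2 difference of -2.98 (SE 1.27, limma adjusted p = 0.298). Atp5g2 was listed at 7.50, 0, 25.3 and 21.9 against 25.1, 19.3, 0 and 0, near the floor of the table. Genes for one protein thus had log2 differences of opposite sign: in acLDL libraries 2 and 3 Atp5g1 was at its highest and Atp5g3 at its lowest. Their promoters are shown for this contrast. Atp5g3 (chr2:73911277-73911576, minus strand) has 1 NRF1 match, in capitals, and Atp5g1 (chr11:96075582-96075881, minus strand) has none of the 3 motifs. With the short-transcript index as a covariate, the log2 difference of Atp5g1 was 0.29 and that of Atp5g3 was -0.10.
Atp5g1: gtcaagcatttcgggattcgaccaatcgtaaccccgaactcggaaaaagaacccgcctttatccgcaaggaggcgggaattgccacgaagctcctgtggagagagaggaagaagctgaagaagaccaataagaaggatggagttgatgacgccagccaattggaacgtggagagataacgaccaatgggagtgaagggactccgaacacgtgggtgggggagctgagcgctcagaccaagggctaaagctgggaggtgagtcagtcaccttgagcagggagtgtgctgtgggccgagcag
Atp5g3: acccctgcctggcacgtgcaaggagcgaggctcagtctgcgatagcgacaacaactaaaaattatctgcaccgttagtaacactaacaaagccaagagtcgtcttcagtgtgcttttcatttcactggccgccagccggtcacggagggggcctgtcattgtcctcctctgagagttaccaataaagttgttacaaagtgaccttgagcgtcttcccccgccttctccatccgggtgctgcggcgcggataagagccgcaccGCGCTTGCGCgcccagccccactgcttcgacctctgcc

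**Figure D3:**
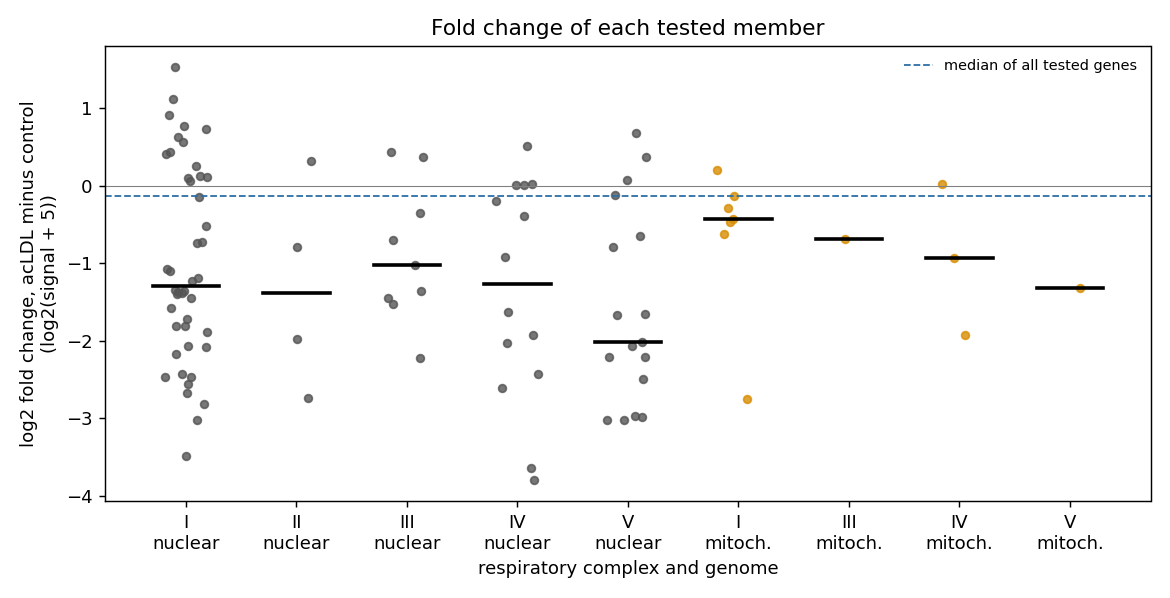
Log2 difference (acLDL minus control) of each tested member, by complex and genome (grey nuclear, orange mitochondrial), with the median of each set as a bar and that of all tested genes, -0.13, as a dashed line. The nuclear medians lay between -2.01 (complex V) and -1.02 (complex III), and each set with more than 1 member held members on both sides of 0.

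The mitochondrial genes, although transcribed from shared units, did not vary alike across the libraries. Among the 7 complex I genes, mt-Nd3 was at 6789, 192, 107 and 601 with acLDL and 407, 8791, 7667 and 6654 in controls, a log2 difference of -2.75 (SE 1.39, limma adjusted p = 0.305). Both groups held low and high libraries, control library 1 lying below acLDL library 4. Downstream on the same strand, mt-Nd4 was at 5666, 3394, 3436 and 3445 against 2659, 8678, 8024 and 6908, and mt-Nd5 at 3368, 4619.5, 5546 and 4864 against 4237, 3779, 3803 and 3864, where acLDL libraries 2 to 4 were the highest. The log2 differences of mt-Nd1, mt-Nd2, mt-Nd4 and mt-Nd5 were -0.42 (SE 0.32), -0.47 (SE 0.23), -0.62 (SE 0.38) and 0.21 (SE 0.18). mt-Nd4l, which overlaps mt-Nd4, was listed at 0 in acLDL library 2 and control library 2, with a log2 difference of -0.13 (SE 1.84). mt-Nd6, the only protein gene on the other strand, overlaps the end of mt-Nd5 and had a log2 difference of -0.28 (SE 0.34). How the counting treated strand and such overlaps is not given in the sources used here, so the values of these neighbours cannot be fully separated.

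The 3 mitochondrial core subunits of complex IV, of which mt-Co1 and mt-Co2 hold its haem and copper centres, did not vary alike either. mt-Co1, the subunit in which oxygen is reduced, was at 8161, 10459.9, 11218 and 8438 with acLDL and 9534, 9672, 8369.8 and 9531 in controls, a log2 difference of 0.03 (SE 0.16) that was below 0 under several of the alternatives. mt-Co2, which takes electrons from cytochrome c, was at 13203, 3104, 441 and 4405 against 3838, 17125, 15639 and 15972, a log2 difference of -1.92 (SE 0.95, limma adjusted p = 0.303). mt-Co3 was at 15723, 5153, 3113 and 6015 against 9930.1, 9875, 14062 and 14717, a log2 difference of -0.93 (SE 0.44). So mt-Co1 was level across the libraries while mt-Co2, the next protein gene on the same strand, spanned a wide range in both groups. mt-Cytb, cytochrome b of complex III, and mt-Atp6, the proton channel subunit of complex V, had log2 differences of -0.68 (SE 0.44) and -1.31 (SE 0.82). For mt-Nd3, mt-Co2 and mt-Atp6, acLDL library 1 stood with control libraries 2 to 4, and control library 1 lay between acLDL libraries 2 and 4. The 2 mitochondrial ribosomal RNAs, which are not members, had log2 differences of 0.26 (SE 0.19) for mt-Rnr1 and -0.01 (SE 0.17) for mt-Rnr2, and with the short-transcript index as a covariate -0.06 and -0.23.

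**Figure D4:**
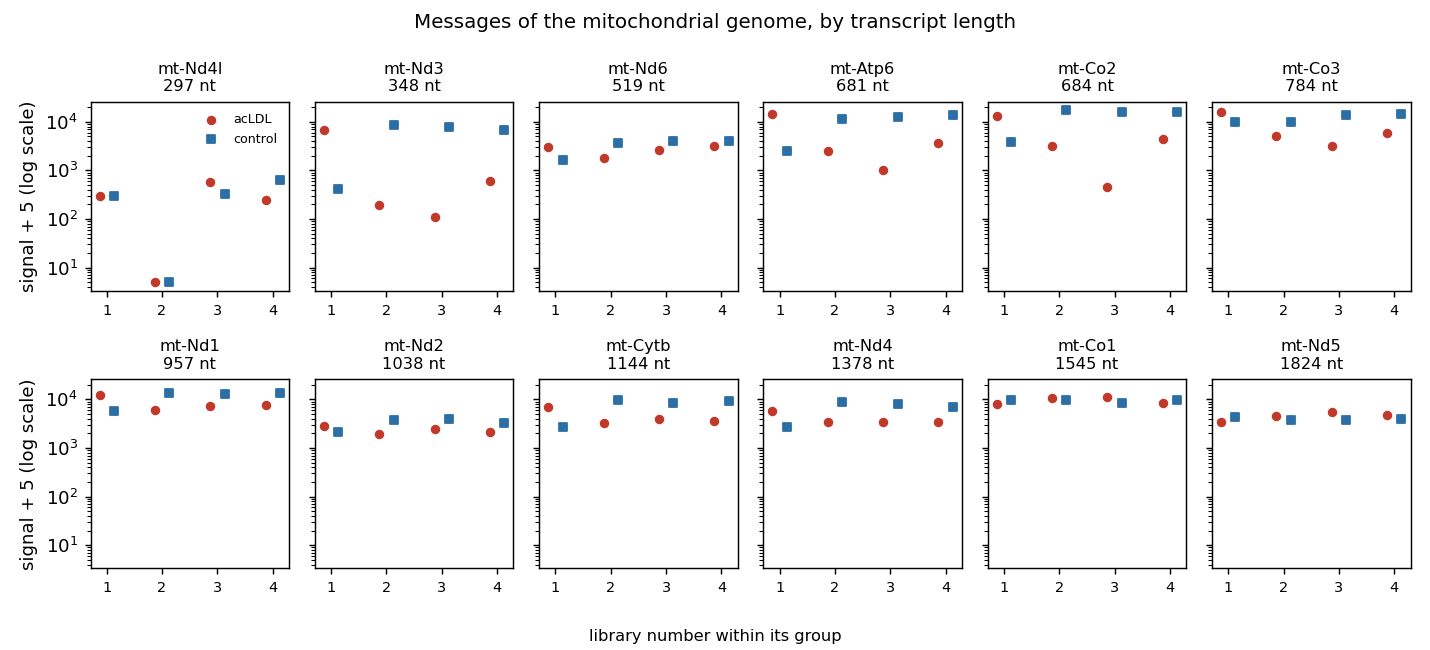
Normalized signal plus 5 (log axis) of the 12 mitochondrial genes in order of transcript length. Libraries of acLDL (red circles) and control (blue squares) stand side by side for numbers 1 to 4. Equal numbers are not known to pair them. mt-Co1 and mt-Nd5 lay in narrow bands, whereas mt-Nd3 ran from 107 to 8791 with low libraries in both groups.

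As a share of all signal, the nuclear members took 1.93%, 1.30%, 1.18% and 1.40% of acLDL libraries 1 to 4 and 1.36%, 1.68%, 1.87% and 1.59% of control libraries 1 to 4, or 1.45% ± 0.330 (SD, n = 4) against 1.63% ± 0.214. The mitochondrial members took 2.24%, 1.0%, 0.955% and 1.23% with acLDL and 1.10%, 2.35%, 2.39% and 2.57% in controls, or 1.36% ± 0.599 against 2.10% ± 0.675. The groups overlapped in both shares. A share weights each gene by its signal, whereas the median counts each gene once. The mitochondrial ribosomal RNAs took 0.972% to 1.44% with acLDL and 1.02% to 1.36% in controls.

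Transcript length was set beside the differences because respiratory chain mRNAs are short and short transcripts of the whole table were low in the same libraries. Of the 88 nuclear members, 49 (55.7%) have a longest coding transcript under 1000 nt, counting Cox7c-ps1 and Ndufb1. Both of these matched entries not annotated as protein-coding, so their longest transcript was used. The median length of the nuclear members is 891.5 nt. These 49 had a median log2 difference of -1.81, with 41 lower and 8 higher. The 39 longer ones had -0.70, with 23 lower and 16 higher. Genes outside the members had -1.25 under 1000 nt (667 genes, 503 lower and 164 higher) and -0.09 at or above it (9140 genes). With the short-transcript index as a covariate the 49 short members had a median of 0.16. Spearman's rho between length and log2 difference was 0.36 over the nuclear members, 0.42 over the 12 mitochondrial genes and 0.24 over 9907 tested genes, each a description across genes measured in the same 8 libraries.

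Length did not order the members fully. Ndufaf8 (781 nt), Cox6c (738 nt) and Ndufa2 (572 nt) had higher means despite short transcripts, with log2 differences of 1.54, 0.51 and 0.57. Atp5b (1916 nt), Atp5c1 (1735 nt) and Ndufs1 (2661 nt) had lower means despite long ones. These examples were picked after their values were seen. Among the mitochondrial genes, mt-Nd3 (348 nt), mt-Co2 (684 nt) and mt-Atp6 (681 nt) had the lowest log2 differences with all 8 libraries (0.24, 0.14 and 0.45 with the short-transcript index as a covariate), while mt-Nd5 (1824 nt) and mt-Co1 (1545 nt) were the only ones above 0, and mt-Nd4l (297 nt) and mt-Nd6 (519 nt) lay between.

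**Figure D5:**
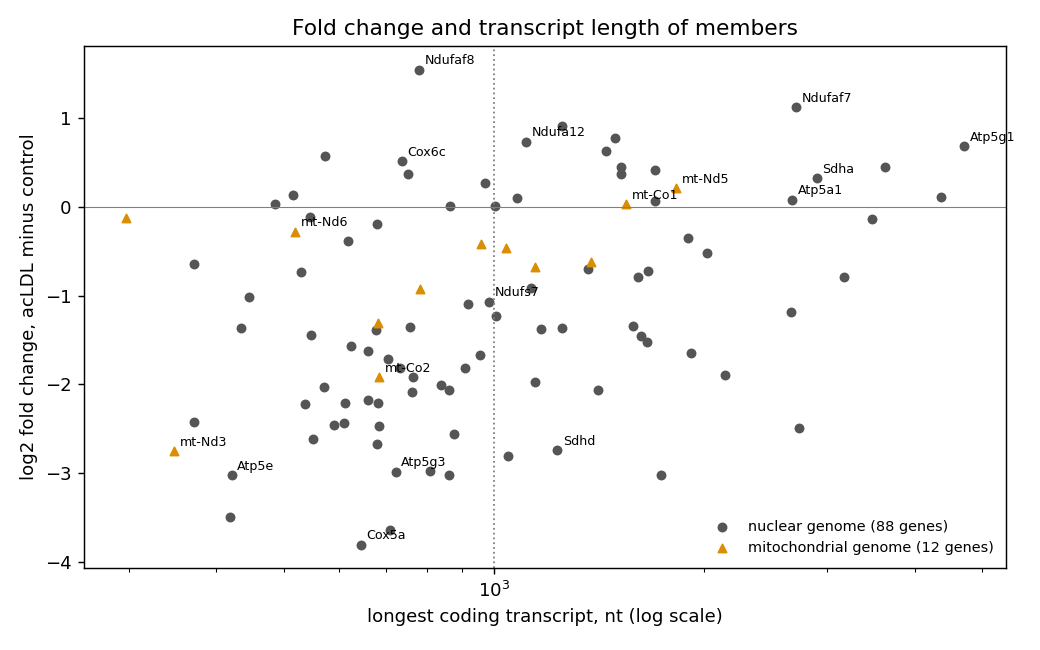
Longest coding transcript in nt (log axis) against log2 difference (fold change axis) for the 88 nuclear members (grey circles) and the 12 mitochondrial ones (orange triangles), with a dotted line at 1000 nt. For Cox7c-ps1 and Ndufb1, matched to entries not annotated as protein-coding, the longest transcript was used. The nuclear members under 1000 nt had a median of -1.81 and those at or above it -0.70.

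Other genes of the pathway were taken from lists by function, and no gene of any list passed the threshold. Assembly factors outside the symbol rule split evenly, 20 lower and 20 higher of 40 tested, with a median of -0.02. Tmem186, a complex I assembly factor of the membrane arm, was at 114, 199, 217 and 151 with acLDL and 85.6, 55.9, 45.9 and 63.3 in controls, a log2 difference of 1.37 (SE 0.30, limma adjusted p = 0.298) with no overlap. Uqcc3, an assembly factor of complex III, was at 547, 1270.4, 1306 and 731 against 560.0, 401, 512 and 436. Both were highest in acLDL libraries 2 and 3, the libraries in which many subunits were lowest.

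Of the electron carriers and other quinone-linked dehydrogenases, 10 were lower and 7 higher, with a median of -0.18. Gfer, the sulfhydryl oxidase that passes electrons to cytochrome c, and Gpd2, the glycerol-phosphate dehydrogenase, had log2 differences of 1.16 (SE 0.44) and 0.78 (SE 0.27), or 0.23 and 0.31 with the short-transcript index as a covariate. The list of mitochondrial DNA upkeep and transcript handling had 17 lower and 10 higher, with a median of -0.26. Dguok, which salvages deoxynucleosides for mitochondrial DNA, was listed at 36.5, 0, 0 and 14 with acLDL and 29.7, 334, 77.9 and 23.9 in controls. Rrm2b, a ribonucleotide reductase subunit, had a log2 difference of -1.49 (SE 0.54). The tricarboxylic acid cycle and pyruvate entry list had 13 lower and 7 higher, with a median of -0.93, or 0.21 with the short-transcript index as a covariate. In it, Idh3g, an isocitrate dehydrogenase subunit, and Pdhx, a structural part of pyruvate dehydrogenase, had log2 differences of -1.42 (SE 0.58) and 0.69 (SE 0.29). The inner membrane carriers, uncoupling and cristae list had 9 lower and 10 higher, with a median of 0.07, and in it Slc25a3, the phosphate carrier that feeds complex V, had a log2 difference of 0.51 (SE 0.19) and the cristae protein Phb2 one of -1.83 (SE 0.65).

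Nuclear regulators of mitochondrial genes had 5 lower and 8 higher, with a median of 0.04. Esrra, the oestrogen-related receptor that activates many respiratory chain genes, was at 65.6, 40.9, 40.4 and 25.6 with acLDL and 114, 92.7, 80.8 and 94.5 in controls, a log2 difference of -1.11 (SE 0.31, limma adjusted p = 0.298) with no overlap. It was -0.96 with the short-transcript index as a covariate and -1.10 without acLDL libraries 2 and 3 and was thus about as large without those libraries. Hif1a, which favours glycolysis when oxygen is scarce, was at 662, 950.3, 1263 and 753 against 611, 526, 517 and 541, a log2 difference of 0.68 (SE 0.23, limma adjusted p = 0.298), also with no overlap. That of Hif1a was smaller with the short-transcript index as a covariate, 0.29, and without acLDL libraries 2 and 3, 0.36.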

How the data were processed

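Poly(A) RNA of 8 libraries was sequenced by 3′ tag counting, per the labels' protocols, while the design text of the series has 5′. The tools were bcl2fastq 2.20 and kallisto (version not given in the sources used here) with the mm10 build, per the submitters' processing notes. The deposited table holds the authors' normalized signal per gene and library, though it is named as raw counts: values are not whole and totals are nearly equal, so no count test was run. The lowest value above 0 is 5, so a value listed at 0 may stand for a low estimate.

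Values of all genes were tested together with limma 3.58.1 (R 4.3.3; trend and robust options, group only) on log2(value + 5), for 10091 genes with at least 10 in at least 4 libraries, at an adjusted p of 0.05 (Benjamini-Hochberg). The fit was run on simulated data with independent noise for each gene. This does not test how it handles differences between libraries that many genes share. Transcript lengths and positions came from GENCODE mouse release 21 (GRCm38), in which 97.8% of symbols matched, and tables were made with Python 3.11.15. The members and gene lists were chosen with earlier results of these data known. Genes named in the text were all mitochondrial and complex II genes, the 4 nuclear genes with the smallest p in each of complexes I, III, IV and V, a set of core subunits and isoform pairs, and 2 per other list; others are said to be chosen after their values were seen, and 1 member, counted in all totals, is not reported here by itself. The alternatives were 2 other pseudocounts, other filters, median-of-ratios and quantile scaling, no trend, a replicate block, the short-transcript index as a covariate, and leaving out each library, or acLDL libraries 2 and 3.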

Additional observations from a re-analysis of the deposited data

Results flagged for a closer look

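In groups of 4 libraries, 1 library was looked for that lay far from the other 3, by Dixon's test. Of 136 such groups, 11 held one, and chance gives about 1 in 20. Control library 1 was far below the other controls for the mitochondrial share of all signal, at 1.10%, and for mt-Co2 at 3838, mt-Cytb at 2715, mt-Nd1 at 5806 and mt-Nd6 at 1604. Library 1 with acLDL was far above the other 3 for mt-Nd3 at 6789, mt-Nd4 at 5666, Atp5e at 493, Sdhd at 82.2 and Cox6b2 at 27.3. For Sdhd and Cox6b2 the other acLDL libraries were all listed at 0, so any value above 0 would have been flagged. Control library 3 was far below the other controls for mt-Co1, at 8369.8, although the 4 controls differed little.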

How the results depend on the processing

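By limma, 0 genes of the table passed the threshold, 901 were lower and 749 higher at an unadjusted p under 0.05, and the count that passed was 1 with quantile scaling, 3 without the trend and robust options and 0 to 2190 with 1 library left out, the highest without acLDL library 1. That single omission also brought 50 members past the threshold; the cause was not tested. Quantile scaling moved the median of all tested genes from -0.13 to 0.15, and the medians of the nuclear and mitochondrial members were then -0.93 and -0.65, both below it.

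With the short-transcript index as a covariate, the median was 0.14 for the nuclear and 0.03 for the mitochondrial members, 0.16 for complex I, -0.07 for II, 0.13 for III, 0.17 for IV and 0.10 for V, and 27 nuclear and 6 mitochondrial members were lower. Without acLDL libraries 2 and 3 the median was -0.20 for the nuclear members. By complex it was -0.19 for I, -0.41 for II, -0.17 for III, -0.20 for IV and -0.37 for V. The difference in the nuclear share of signal was then 0.0367 percentage points in place of -0.175. Leaving out control library 1 as well, an alternative chosen after seeing the data, gave -0.33 for the nuclear members. By complex it gave -0.32 for I, -0.58 for II, -0.25 for III, -0.30 for IV and -0.60 for V. The mitochondrial median was -0.26 and the share difference -0.369 percentage points without acLDL libraries 2 and 3, but -0.52 and -0.702 without control library 1 as well, close to -0.55 and -0.746 with all libraries. With 1 library left out, medians ran from -1.89 to -0.68 for the nuclear members, -0.86 to -0.43 for the mitochondrial ones, -1.81 to -0.65 for complex I, -1.91 to -0.90 for II, -1.39 to -0.48 for III, -1.73 to -0.69 for IV and -2.82 to -1.0 for V. Counts of lower members then ran from 64 to 68 nuclear and 9 to 11 mitochondrial, and the share differences from -0.334 to -0.0837 percentage points (nuclear) and from -1.08 to -0.589 (mitochondrial). The shares have no value under settings that change only the log scale, the gene filter or the model.

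Of the members and other genes named in the comparisons, some changed sign. With the short-transcript index these were Atp5b (0.11), Atp5g2 (-0.01), Atpif1 (0.33), Cox5a (0.13), Cox6a1 (0.37), Cox6b1 (0.56), Cox7a2l (0.00), Cox7c (0.27), Cox7c-ps1 (0.81), Ndufa1 (0.21), Ndufa4 (0.16), Ndufs1 (0.39), Uqcrb (0.16), Uqcrc1 (0.18), Uqcrfs1 (0.21), mt-Atp6 (0.45), mt-Co1 (-0.18), mt-Co2 (0.14), mt-Nd1 (0.06), mt-Nd3 (0.24), mt-Nd4l (0.13), mt-Nd5 (-0.07), mt-Nd6 (0.07) and the ribosomal RNA mt-Rnr1 (-0.06). Median-of-ratios scaling gave Cox5b -0.04 and mt-Co1 -0.01, and quantile scaling Cox5b -0.04, Cox6a2 0.28, mt-Co1 -0.10, mt-Nd4l 0.04 and mt-Rnr2 0.04. Without acLDL libraries 2 and 3, Cox6b1 was 0.48, Cox7c-ps1 0.29, mt-Co1 -0.16 and mt-Nd4l 1.05, and without control library 1 as well Cox6b1 was 0.49, mt-Co1 -0.14 and mt-Nd4l 1.43. With 1 library left out, values ran across 0 for Cox5b (-0.07 to 0.10), mt-Rnr2 (-0.09 to 0.10), Cox6a2 (-0.81 to 0.36), Cox6b1 (-0.72 to 0.19), Cox7a1 (-0.24 to 0.22), Atp5g2 (-0.04 to 0.90), mt-Co1 (-0.05 to 0.11) and mt-Nd4l (-1.71 to 1.40).

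Replicate numbers were shared between the groups, but same-numbered libraries did not deviate together (r from -0.55 to 0.03 over 4 pairs). Libraries with different numbers reached r = 0.42 (acLDL library 2 and control library 1). These correlations therefore cannot decide whether the numbers pair the libraries. A fit with the replicate number as a block called 0 genes and left the medians at -1.35 for the nuclear and -0.55 for the mitochondrial members. Read depth cannot be recovered from these values, so no counting error or detection floor was computed.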
